A study of Mus musculus with 4 samples.

Results

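The genes described here carry the symbols of mitochondrial ribosomal proteins, and all but Mrps36 encode proteins of that ribosome. They were chosen by name: every probe set on the array whose only annotated gene symbol starts with Mrpl or Mrps, leaving out Mrps12, which lies near the mutated gene Gsk3a. That gave 155 probe sets for 75 genes, of 45037 probe sets tested and 18193 named genes. The data are 4 Affymetrix arrays of mouse heart RNA. The genotypes compared, each on 2 arrays, were wild-type C57B6 hearts and C57B6 hearts of the genotype GSK-3alpha S21A, in which serine 21 of the kinase GSK-3α is replaced by alanine. All hearts were taken at baseline, without treatment, at 3.6 months of age. The labels do not say whether the mutation was on both chromosomes, or whether an array held 1 animal or a pool, so n counts arrays. Phosphorylation of this serine normally restrains the kinase, and the comparison asks how heart transcripts differ without that control.

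Mitochondria carry their own ribosomes, which translate the few messages of mitochondrial DNA into core subunits of the respiratory chain and ATP synthase. The ribosome has a small subunit, which reads the message, and a large subunit, which joins the amino acids. All of its proteins are encoded in the nucleus, made in the cytosol and imported. Many have bacterial counterparts, and the others are found only in mitochondria. The heart depends on this machinery because its ATP comes mainly from respiration, and inherited defects of human MRPL3, MRPL44 and MRPS22 can cause cardiomyopathy.

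Values are RMA log2 values, 1 per probe set and array. Differences are knock-in minus wild-type on the log2 scale, tested with limma and adjusted by the Benjamini-Hochberg method over all 45037 probe sets, with a threshold of 0.05 on the adjusted p. A gene with several probe sets is represented by the brightest. The array medians lay between 6.14 and 6.23. The heart label was matched by its markers, since the 15 cardiomyocyte markers lay between 11.06 (Myl7) and 14.86 (Myl3) on every array. Transcripts typical of liver were higher in knock-in hearts: all 20 measured markers of 25 listed had a higher mean, and their median level was 6.21 and 5.66 on wild-type arrays 1 and 2 and 8.48 and 7.03 on knock-in arrays 1 and 2. Albumin (Alb) lay at 7.33 and 5.72 against 10.81 and 9.66. Fibroblast markers were higher for 10 of 10 genes (median 0.19) and endothelial markers for 9 of 10 (median 0.17). The part of these transcripts in the differences below was not tested. Gsk3a itself read 11.16 and 11.08 in wild-type and 10.62 and 10.80 in knock-in hearts, a difference of −0.42 (limma adjusted p = 0.458), and the level of a gene with a changed codon does not check the labels. In bulk tissue, a change in the number of cells of a type and a change in RNA per cell cannot be told apart.

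No mitochondrial ribosomal protein gene passed the test. Of the 155 probe sets, 0 were called higher and 0 lower (limma, adjusted p under the threshold), against 0.00666% called higher and 0% called lower over all probe sets. At an unadjusted limma p under 0.05, 10 of the 155 were higher and 1 lower, where the share over all probe sets was 5.07% higher and 5.62% lower. Of the 75 genes, by their brightest probe set, 2 were higher (2.67%, against 5.45% of all genes) and 0 lower (against 4.76%) at that unadjusted p. The 11 probe sets belong to 9 genes, and only those of Mrps10 and Mrpl18 are the brightest for their gene. The smallest adjusted p over the 155 probe sets was 0.36 (limma).

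Differences were small, and more of them were positive than negative in the deposited values. Of the 75 genes, 58 (77.3%) had a higher mean in knock-in hearts, with a median log2 difference of 0.076 and a range from −0.19 (Mrps36) to 0.28 (Mrps10). Over all genes 46.9% had a higher mean and the median was −0.014. Counted by probe set, 106 of 155 (68.4%) were higher, against 41.4% of all probe sets. The groups did not overlap for 40 of the genes in either direction: both knock-in values lay above both wild-type values for 32 genes (42.7%, against 22.5% of all genes) and below them for 8 (10.7%, against 24.1%). The shares of all genes cover every level, whereas no family gene had a mean below 8.15. Of all genes with a mean below 7, 25.5% were higher. The size of the family's lean depended on the scaling between arrays. With the arrays shifted to 1 median, the count was 65 and the median 0.14, and the median of all genes was then 0.046. After quantile normalisation of the deposited values the median of the 75 genes was 0.0073 with 42 higher, and after cyclic loess it was 0.0032 with 38 higher.

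**Figure D1:**
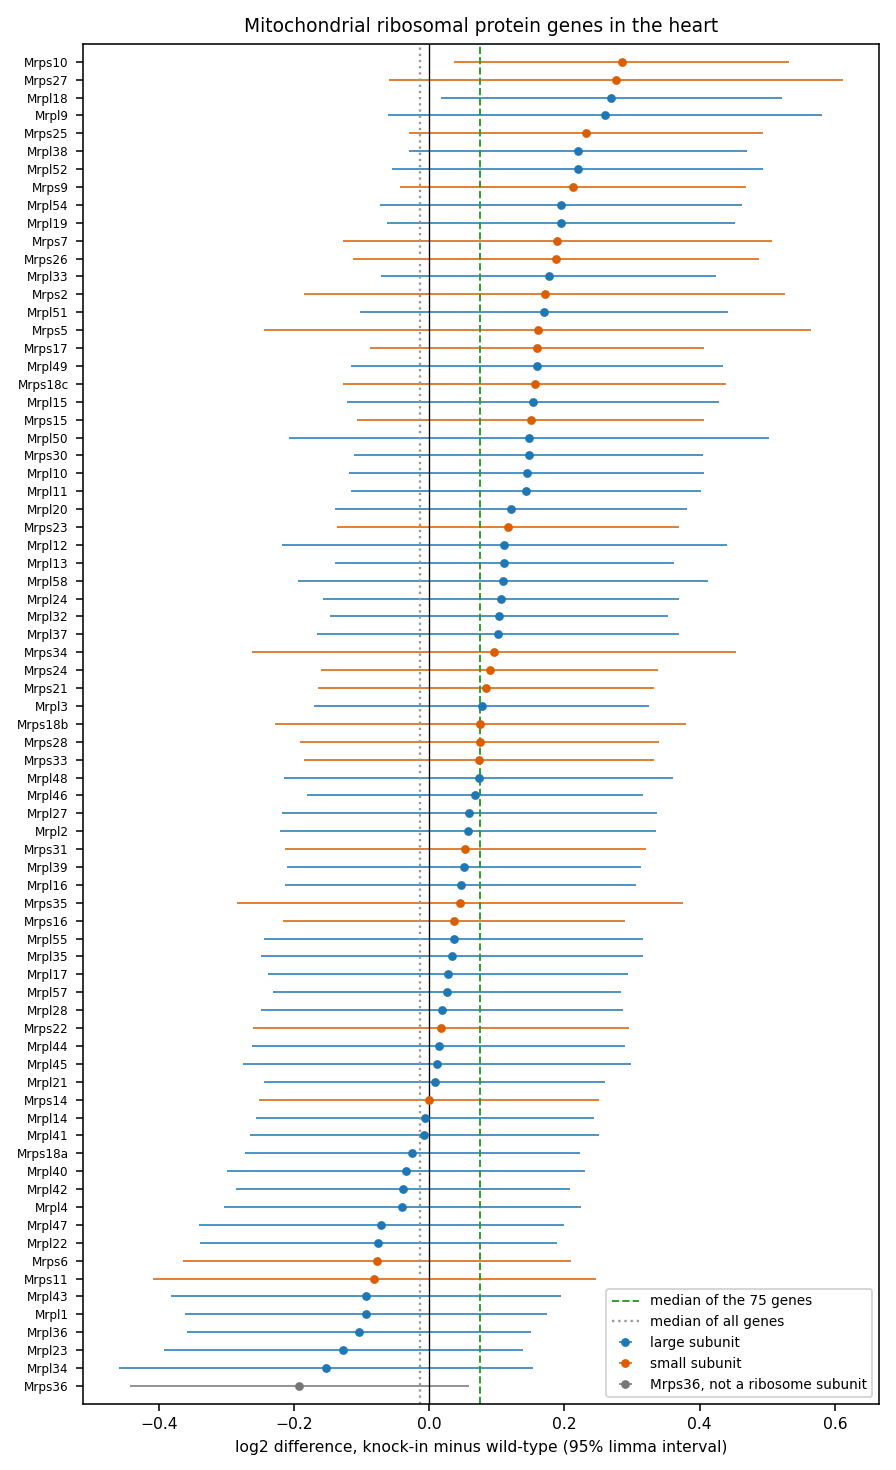
Log2 difference (knock-in minus wild-type, x axis) of the 75 genes, with limma 95% intervals over 2 arrays per genotype; colours mark the subunit, the dashed line the median of the 75 genes (0.076) and the dotted line the median of all genes (−0.014). Only the intervals of Mrps10 and Mrpl18 lie wholly above 0, before any adjustment for the number of tests.

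Differences also varied with the level of the probe set, over the whole array and within the family. Among all genes with a mean log2 value of at least 9, 69.7% were higher in knock-in hearts and the median difference was 0.064. Of the 75 genes of the family, 73 are represented by probe sets in this range, and 57 of them (78.1%) were higher, with a median of 0.076. Within that range the comparison of the family with all genes varied by level. Between 9 and 10, 14 of 16 family genes were higher (87.5%, against 70.5% of all genes), with medians of 0.18 and 0.072. Between 10 and 11, 22 of 25 were higher (88.0%, against 70.7%), with medians of 0.10 and 0.072. Between 11 and 12, 19 of 27 were higher (70.4%, against 69.6%), with medians of 0.046 and 0.062. At 12 and above, 2 of 5 were higher (40%, against 64.1%), with medians of −0.039 and 0.032. Whether the family differs from genes of like level was not tested. Both knock-in values lay above both wild-type values for 36.7% of all such genes and for 43.8% of the 73. Without regard to level, the medians of the family and of all genes lay 0.090 apart. Dim probe sets showed the opposite sign. Of the 37 probe sets of the family with a mean below 7, 12 were higher and the median was −0.070, where all 27822 probe sets in that range had a median of −0.092.

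**Figure D2:**
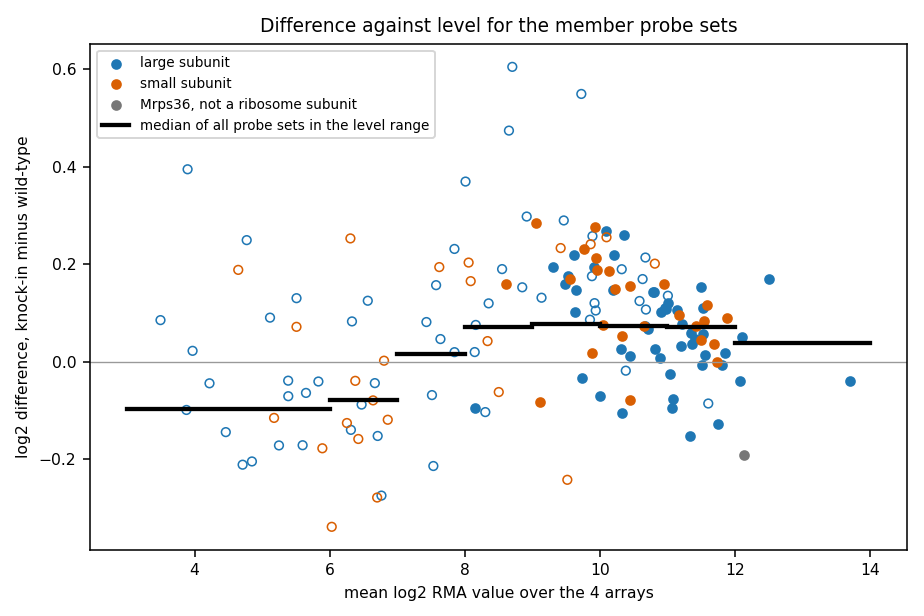
Log2 difference against the mean log2 RMA value over 4 arrays for the 155 probe sets; filled points are the brightest probe set of each gene, open points the others, and black bars the median of all probe sets in the same level range. The bars run from −0.096 below a level of 6 to 0.078 between 9 and 10, and the medians of the family lie above them between 7 and 11 (0.18 between 9 and 10) and below them from 11 upward.

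The arrays of each genotype differed from one another by about as much as the genotypes did. The median level of the 75 genes was 10.80 and 10.75 on wild-type arrays 1 and 2 and 10.82 and 10.90 on knock-in arrays 1 and 2. Knock-in array 2 was higher than knock-in array 1 for 62 of the 75 genes, by a median of 0.066. Knock-in array 1 against wild-type array 1 gave 38 genes higher and a median of 0.0055, whereas knock-in array 2 against wild-type array 2 gave 61 higher and a median of 0.13. Without knock-in array 2 the median of the family was 0.026 (48 of 75 higher), and without wild-type array 2 it was 0.044 (46 higher). The liver markers had the opposite order on the knock-in arrays, with the higher median on array 1. On the wild-type arrays the liver markers and the family were both higher on array 1. Mean levels on wild-type arrays 1 and 2 and knock-in arrays 1 and 2 were 10.72, 10.67, 10.74 and 10.80 for the family. They were 10.75, 10.66, 10.79 and 11.01 for the fibroblast markers, and 10.01, 9.88, 10.05 and 10.20 for the endothelial markers. Whether these orders are linked was not tested. RNA quality can be read from the 3′ excess over 5′ of the Gapdh control probe sets. On the log2 scale it was 0.76 on knock-in array 2, against 0.54 on knock-in array 1 and 0.62 and 0.61 on the wild-type arrays. The part of RNA quality in these differences was not tested.

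The small subunit had 22 of 25 genes with a higher mean and a median of 0.096, and the large subunit 36 of 49 and 0.059. In the small subunit 12 genes had both knock-in values above both wild-type values and 0 had them below. In the large subunit the counts were 20 and 7. Over all genes the shares were 22.5% above and 24.1% below, and 36.7% were above among those at a level of at least 9. The share below was not counted at that level. Whether the subunits differ was not tested. Proteins with a bacterial counterpart and those found only in mitochondria gave medians of 0.12 (16 genes) and 0.096 (9 genes) in the small subunit, and of 0.057 (29 genes) and 0.073 (19 genes) in the large subunit. Mrps18a and Mrps30 were counted with the large subunit, where their proteins sit despite their names. Mrps36, whose protein is now known as an adaptor of the 2-oxoglutarate dehydrogenase complex, was counted with neither.

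Mrps10, a protein of the head of the small subunit, had the largest difference of the 75 genes by their brightest probe sets. Its values were 8.90 and 8.93 in wild-type hearts and 9.21 and 9.19 in knock-in hearts. Both knock-in arrays were higher than both wild-type arrays, and the spread within each genotype was small. The difference of 0.28 (SE 0.10, 95% interval 0.037 to 0.53) missed the threshold (limma adjusted p = 0.458). A dim second probe set of Mrps10 differed by −0.13, and with the mean of the 2 probe sets the gene differed by 0.080.

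The small subunit genes Mrps27, Mrps25 and Mrps9 were also among the 10 with the smallest p of those higher. For Mrps27, whose protein is found only in mitochondrial ribosomes and carries pentatricopeptide repeats, which bind RNA, the values were 9.88 and 9.69 in wild-type and 9.92 and 10.20 in knock-in hearts. The groups did not overlap, but wild-type array 1 and knock-in array 1 lay close together, and the difference of 0.28 was 0.13 without knock-in array 2. Mrps25, another protein found only in mitochondria, had 9.59 and 9.72 against 9.88 and 9.90, and Mrps9, a protein with a bacterial counterpart, 9.83 and 9.84 against 9.998 and 10.10. Their knock-in values lay above all wild-type values, with differences of 0.23 and 0.21. Other probe sets of Mrps25 differed by 0.17 and −0.039, and those of Mrps9 by 0.23, 0.20 and 0.0026.

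Mrpl18, a large subunit protein that binds RNA, was the only other gene whose interval excluded 0 before adjustment. Its values were 9.98 and 9.95 in wild-type and 10.19 and 10.27 in knock-in hearts. The groups were well apart on the 1 probe set that measures the gene. They differed by 0.27 (SE 0.11, 95% interval 0.017 to 0.52; limma adjusted p = 0.459).

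Mrpl9, the counterpart of a bacterial protein at the base of a stalk of the large subunit, was higher by all 3 of its probe sets. The brightest read 10.38 and 10.07 in wild-type and 10.45 and 10.52 in knock-in hearts, a difference of 0.26 that was 0.11 without wild-type array 2. The others differed more. One read 8.38 and 8.42 against 8.97 and 9.04, a difference of 0.61 with a standard error of 0.11, and its adjusted p of 0.36 (limma) was the smallest of the family. It is of the _s_at class, which can match more than 1 gene's transcripts, and with the _x_at and _s_at classes left out the smallest adjusted p of the family was 0.465 (limma). The third read 8.61 and 8.22 against 9.06 and 8.72, a difference of 0.47. The values are therefore higher in knock-in hearts on every probe set of Mrpl9, by unequal amounts.

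Mrpl13, named after its values were seen, was also higher by all of its probe sets. The protein is the counterpart of a conserved bacterial large subunit protein. Its brightest probe set read 11.45 and 11.51 in wild-type and 11.58 and 11.60 in knock-in hearts, a difference of 0.11. A probe set at a lower level read 9.35 and 9.55 against 10.13 and 9.87, a difference of 0.55 (limma adjusted p = 0.458). The remaining probe sets, both with means below 5, differed by 0.25 and 0.40. Both knock-in values lay above both wild-type values on each of the 4 probe sets of Mrpl13. Such values were seen for 18.5% of all probe sets and 37.8% of those with a mean of at least 9. The dimmest of the 4 had a mean of 3.90 and read 4.09 on both knock-in arrays.

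The other large subunit genes of smallest p among those higher were Mrpl38, Mrpl52, Mrpl19 and Mrpl54. Mrpl38 had 9.54 and 9.48 against 9.73 and 9.74, and Mrpl52 had 10.09 and 10.12 against 10.41 and 10.23. Mrpl19 had 9.76 and 9.87 against 10.01 and 10.01, and Mrpl54 had 9.28 and 9.13 against 9.38 and 9.41. Mrpl19 has a bacterial counterpart, whereas the other 3 are found only in mitochondria. For each of the 4 genes every knock-in value exceeded every wild-type value, with differences of 0.22, 0.22, 0.20 and 0.20 in the order named. The brightest Mrpl38 probe set, with a mean of 9.62, is of the _s_at class. With that class left out a much dimmer probe set, with a mean of 6.33, stands for the gene and differed by 0.083. Mrpl52 and Mrpl19 have further bright probe sets, which differed by 0.26 and 0.11 for Mrpl52 and by 0.29 for Mrpl19. Adjusted p over the 10 genes of smallest p among those higher lay between 0.458 and 0.521 (limma).

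**Figure D3:**
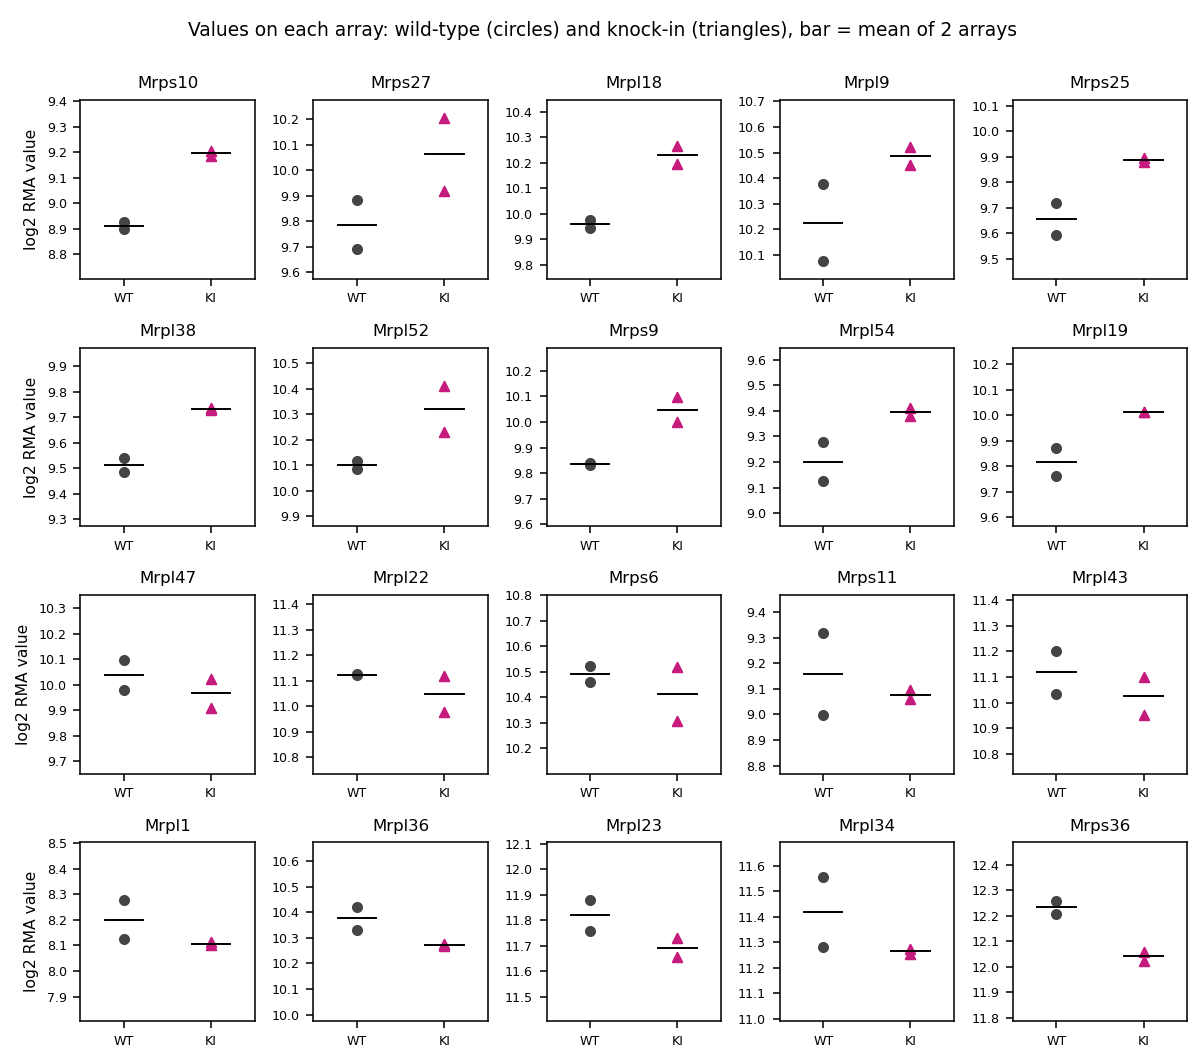
Log2 RMA value on each array (y axis, each panel spanning the same log2 range) for the 10 genes of smallest p among those higher and the 10 among those lower in knock-in hearts; circles are the 2 wild-type arrays, triangles the 2 knock-in arrays, bars their means. The 10 higher genes show no overlap between genotypes, and 4 of the 10 lower genes (Mrpl43, Mrps6, Mrpl47 and Mrps11) do.

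Genes with a lower mean in knock-in hearts differed by less. Mrps36, whose protein is not a ribosome subunit, had 12.26 and 12.21 in wild-type and 12.02 and 12.06 in knock-in hearts. Its groups were apart. The difference was −0.19 (SE 0.10, 95% interval −0.44 to 0.058; limma adjusted p = 0.508), and it was −0.26 after quantile normalisation or cyclic loess. Mrpl34, the counterpart of a small bacterial large subunit protein, had 11.55 and 11.28 against 11.26 and 11.27, so that only wild-type array 1 stood apart. Its difference of −0.15 was −0.016 without that array.

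The large subunit genes Mrpl23, Mrpl36, Mrpl1 and Mrpl22 also had both knock-in values below both wild-type values. Mrpl23 read 11.88 and 11.76 against 11.65 and 11.73, and Mrpl36 read 10.42 and 10.33 against 10.28 and 10.27. Mrpl1 read 8.12 and 8.28 against 8.11 and 8.10, and Mrpl22 read 11.12 and 11.12 against 10.98 and 11.12, where knock-in array 2 was only just below. All 4 have bacterial counterparts, and their differences lay between −0.13 and −0.075. Mrpl43, Mrps6, Mrpl47 and Mrps11 overlapped between the genotypes, with differences between −0.094 and −0.071. The second probe sets of Mrps6 and Mrpl34 differed by −0.24 and −0.10, and that of Mrps6 stands for the gene where the _s_at class is left out. A Mrpl1 probe set of slightly lower level had the opposite sign, at 7.70 and 7.76 in wild-type and 7.92 and 8.005 in knock-in hearts, a difference of 0.23.

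Mrpl44, Mrps22, Mrpl3 and Mrps16, linked to human cardiomyopathy or to other inherited defects, were named whatever their values. Each differed by under 0.1 on its brightest probe set. Other genes of the family with such links were not gathered here. Mrpl44, which resembles an RNA-cutting enzyme, had 11.46 and 11.63 in wild-type and 11.52 and 11.59 in knock-in hearts, which overlap. Its difference was 0.014, with a 95% interval from −0.26 to 0.29, and its other probe sets differed by 0.21, 0.18 and 0.087. Mrps22, found only in mitochondria, had 9.96 and 9.80 against 9.84 and 9.95, a difference of 0.018 with an interval from −0.26 to 0.30. Mrpl3, near the site where amino acids are joined, had 11.18 and 11.19 against 11.24 and 11.27, a difference of 0.077 with an interval from −0.17 to 0.33. Its other probe sets differed by 0.30, 0.12 and −0.27, the first of them among the 11 at an unadjusted p under 0.05. Mrps16, counterpart of a bacterial small subunit protein, had 11.70 and 11.63 against 11.68 and 11.72, a difference of 0.037 with an interval from −0.22 to 0.29. The signs of Mrpl44, Mrps22 and Mrps16 turned after quantile normalisation and after cyclic loess.

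Mrpl12 and Mrpl11 are counterparts of the bacterial proteins that recruit translation factors to the large subunit, and Mrpl12 is also known to bind the mitochondrial RNA polymerase. Mrpl12 had 11.06 and 10.75 in wild-type and 10.96 and 11.08 in knock-in hearts, with overlap and a difference of 0.11 (95% interval −0.22 to 0.44). Mrpl11 had 10.75 and 10.70 against 10.82 and 10.92, with no overlap and a difference of 0.14 (−0.12 to 0.40). Further Mrpl11 probe sets differed by 0.12 and 0.076, and a dim one by −0.21.

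Probe sets of 1 gene did not always share a direction. Of the 42 genes with at least 2 probe sets, all were higher for 13, all were lower for 2, and the signs were mixed for 27. Mrps5, a small subunit protein at the entry of the message, was the only gene of mixed sign with a probe set differing by at least 0.3. Its brightest probe set read 8.75 and 8.30 in wild-type and 8.603 and 8.78 in knock-in hearts, with overlap and a difference of 0.16. The 4 others had means between 6.03 and 6.86 and differed by −0.34, −0.28, −0.16 and −0.12. The mean of the 5 probe sets gave −0.15.

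The promoters of these genes were compared with all others because nuclear factors such as NRF1 and the ETS factor GABP are known to drive genes of mitochondrial proteins. RefSeq promoter windows of assembly GRCm38.p6, from 250 bases before to 50 after the transcript start, were found by symbol for 66 of the 75 genes, in 72 windows. Their median GC content was 58.8%, against 52.7% over all 32851 windows. The median number of CG pairs in a window was 21, against 7 over all windows. The searched letters, on both strands and exactly as written, were CCGGAAG for ETS factors such as GABPA, GCATGCG for NRF1, ATGGCGG for YY1 and CACGTG for the E-box. The ETS letters stood in 24 of the 72 windows (33.3%, against 8.86% of all), the YY1 letters in 12 (16.7%, against 4.05%), the NRF1 letters in 8 (11.1%, against 3.58%) and the E-box in 7 (9.72%, against 7.15%). Counted by gene, the E-box stood in only 5 of the 66, since several of its windows belong to Mrpl2. These are matches of letters, not sites of binding. Each searched string holds a CG pair, and whether the shares differ from those of windows equally rich in CG pairs was not tested. The median difference between genotypes was 0.075 for the 24 genes with the ETS letters and 0.063 for the 42 without. It was 0.12 for the 12 genes with the YY1 letters and 0.071 for the 54 without, and 0.090 for the 8 with the NRF1 letters and 0.071 for the 58 without. These gaps were not tested.

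Windows of Mrps27, Mrpl18 and Mrpl9 are shown to display the matched letters, cut at 30 bases after the start. Mrps10, the gene of largest difference, is not shown because its window holds none of the 4 motifs, and neither do those of Mrps25 and Mrps9. Capitals mark the matches, on either strand. In Mrpl9 (chr3:94443086-94443365, plus strand) the NRF1 letters stand on both strands at 1 place before the start, with overlapping matches, and the YY1 letters after it. In Mrps27 (chr13:99344536-99344815, plus strand) an ETS match precedes the start and a YY1 match follows it. In Mrpl18 (chr17:12916062-12916341, minus strand) the only match is an ETS one at the far end.
Mrpl9: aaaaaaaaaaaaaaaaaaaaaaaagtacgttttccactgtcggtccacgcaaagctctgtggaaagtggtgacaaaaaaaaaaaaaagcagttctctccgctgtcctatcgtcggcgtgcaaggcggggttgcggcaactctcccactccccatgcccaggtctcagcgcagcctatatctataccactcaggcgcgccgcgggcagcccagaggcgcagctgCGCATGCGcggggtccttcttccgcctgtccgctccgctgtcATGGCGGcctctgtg
Mrps27: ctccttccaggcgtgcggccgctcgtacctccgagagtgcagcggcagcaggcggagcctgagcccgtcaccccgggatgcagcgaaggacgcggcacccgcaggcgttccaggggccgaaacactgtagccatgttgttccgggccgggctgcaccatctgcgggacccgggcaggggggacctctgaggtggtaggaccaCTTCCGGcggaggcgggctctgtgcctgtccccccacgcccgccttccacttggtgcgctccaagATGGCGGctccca
Mrpl18: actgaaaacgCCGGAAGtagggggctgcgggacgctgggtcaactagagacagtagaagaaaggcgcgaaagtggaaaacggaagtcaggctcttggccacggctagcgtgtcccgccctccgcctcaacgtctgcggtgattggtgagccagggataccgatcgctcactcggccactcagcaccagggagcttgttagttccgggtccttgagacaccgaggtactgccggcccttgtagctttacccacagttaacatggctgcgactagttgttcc

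Other genes of mitochondrial translation, in lists of subunits with other symbols, assembly, translation factors and tRNA charging, had medians between 0.077 and 0.14, and 0 of them passed the test. Among all genes at a level between 8 and 9, 66.7% were higher and the median was 0.075. Between 9 and 10 the share was 70.5% and the median 0.072. Whether these lists differ from genes of like level was not tested. Ribosome subunits that carry other symbols were higher in 4 of 4 cases, with Gadd45gip1 at 0.58, Ptcd3 at 0.17, Dap3 at 0.11 and Chchd1 at 0.029. Gadd45gip1 read 9.95 and 9.18 in wild-type and 10.09 and 10.19 in knock-in hearts, so wild-type array 2 alone was low. Of 27 genes of ribosome assembly 22 were higher, with a median of 0.11, and 1 (Mrm2) was higher at an unadjusted limma p under 0.05, where the share of all genes was 5.45%. The 5 lower genes reached −0.14, for the GTPase gene Mtg2. Those of smallest p include the rRNA methyltransferase genes Mrm2 at 0.36 and Nsun4 at 0.29, and the helicase gene Ddx28 at 0.28. Among 12 translation factors 9 were higher, with a median of 0.11. The elongation factor genes Tsfm and Tufm lay at 0.25 and 0.023, and the initiation factor gene Mtif3 at −0.17.

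Enzymes that charge mitochondrial tRNAs had a median of 0.077, with 13 of 19 higher and 3 at an unadjusted p under 0.05, namely Iars2 at 0.36, Mars2 at 0.30 and Fars2 at 0.26. The share of all genes higher at that p was 5.45%. The 6 lower genes reached −0.18, for Pars2. Of 24 genes that copy, transcribe or process mitochondrial nucleic acids 22 were higher, with a median of 0.11, among them Tfam, which packages mitochondrial DNA, at 0.27 and Lrpprc, which stabilises its messages, at 0.22. Tfam read 8.996 and 9.29 in wild-type and 9.41 and 9.42 in knock-in hearts. Of the nuclear regulators of these genes 4 of 10 were higher, with a median of −0.060. The share higher was 46.9% of all genes, and 70.5% of those at a level between 9 and 10. The coactivator genes Ppargc1b and Ppargc1a lay at −0.25 and −0.21, Yy1 at −0.17, and Gabpa and Gabpb1, the subunits of an ETS factor, at 0.30 and 0.23. Of the 10 regulators 0 passed the limma test, and 0 reached an unadjusted p under 0.05 (smallest adjusted p 0.475).

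The cytosolic ribosome and the respiratory chain had smaller medians. Of 49 cytosolic ribosomal protein genes 31 were higher, with a median of 0.028. For 77 nuclear genes of respiratory chain and ATP synthase subunits the median was 0.0098, with 44 higher. Of 30 genes of the machinery that imports mitochondrial proteins 24 were higher, with a median of 0.092. Single genes differed more, with Rpl12 at 1.05, Cox7c at 0.50 and Tomm20l at −0.67 the farthest from 0 in their lists. At an unadjusted limma p under 0.05, 4 cytosolic ribosomal genes were higher and 0 lower, where the shares of all genes were 5.45% and 4.76%. The counts were 1 and 0 for the respiratory chain and 0 and 1 for import. In none of these lists did a member pass the test, and whether the lists differ from the mitochondrial ribosome was not tested. Genes at a high level on this array, such as the respiratory chain subunits, also had a smaller median among all genes, at 0.032 for the 577 genes with a mean of at least 12.

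**Figure D4:**
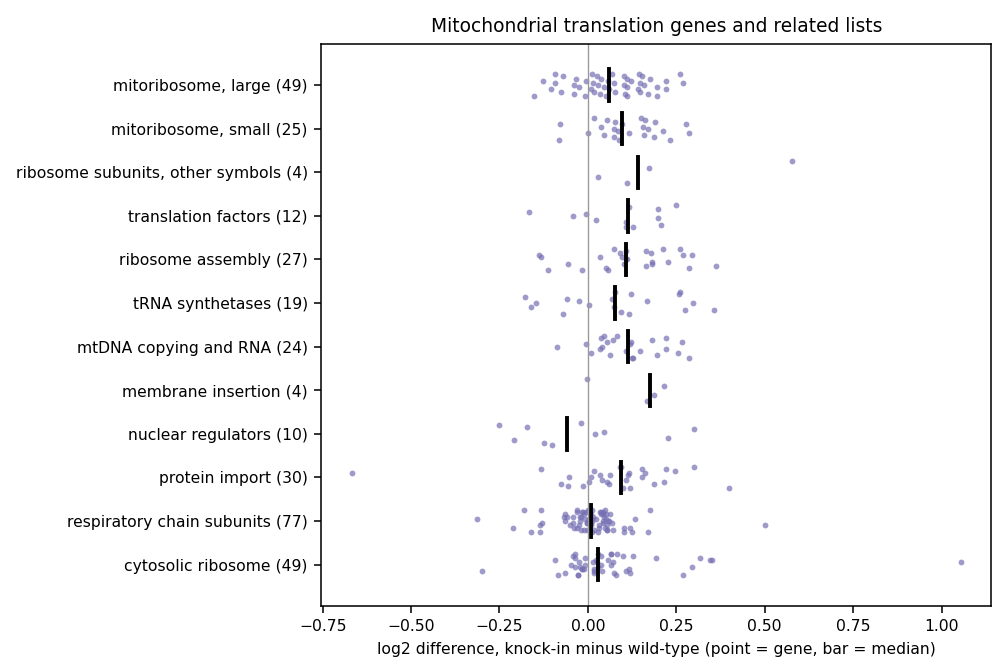
Log2 difference (knock-in minus wild-type) of each gene (points) and the median (bars) in the mitochondrial ribosome and related lists, with the number of genes in brackets. Medians run from −0.060 for the nuclear regulators to 0.18 for the 4 membrane insertion genes, and the points of all lists overlap.

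Chromosome 7 carries Gsk3a and 5 of the 75 genes, namely Mrpl17, Mrpl23, Mrpl46, Mrpl48 and Mrps11. Without these 5 the median of the family was 0.087, with 55 of 70 higher. Mrps12, left out of the family because it lies near Gsk3a, read 10.77 and 10.64 in wild-type and 10.15 and 10.17 in knock-in hearts, a difference of −0.55 that did not pass the test (limma adjusted p = 0.436). It is farther from 0 than the difference of any of the 75 genes by their brightest probe sets. Dimmer probe sets of Mrpl9 and Mrpl13 differed by 0.61 and 0.55.

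**Figure D5:**
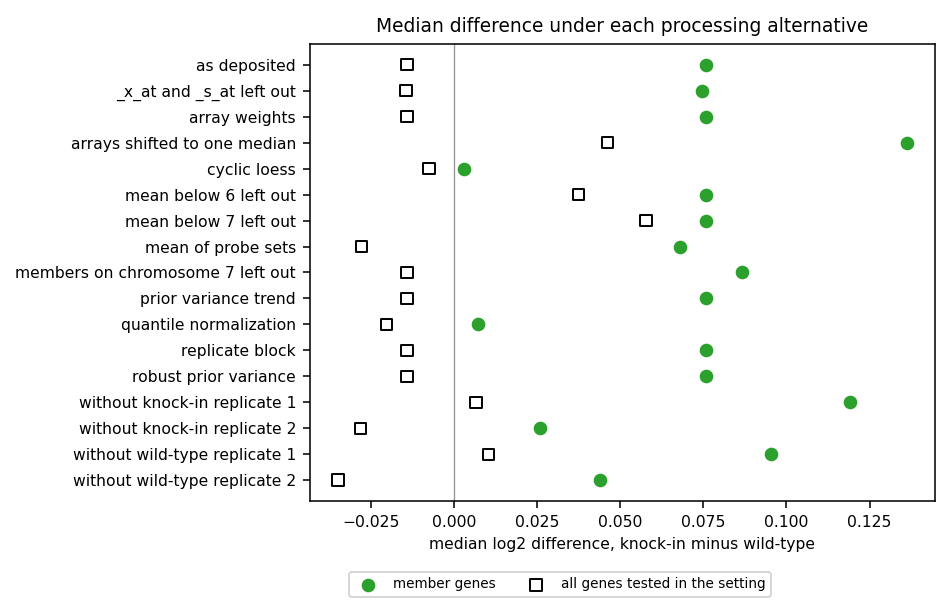
Median log2 difference (knock-in minus wild-type) of the family (filled circles) and of all genes tested in that setting (open squares) as deposited and under 16 alternatives. The family's median is above that of all genes in each setting shown, by 0.090 as deposited, 0.028 after quantile normalisation, 0.018 with probe sets below a mean of 7 left out and 0.011 after cyclic loess.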

How the data were processed

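Heart RNA of 2 wild-type and 2 GSK-3alpha S21A samples was hybridised to Affymetrix arrays. The deposited values are log2 RMA summaries for which the submitters' processing notes name RMA and Affymetrix Expression Console; the wild-type scans were normalised with these knock-in arrays alone, per the labels. No software version or filter is stated in the labels. RMA usually brings arrays to a common distribution, which takes out shifts common to most genes. The deposited values still differed between arrays, with array medians from 6.14 to 6.23. A further quantile normalisation moved the family's median difference from 0.076 to 0.0073. From 45101 probe sets, 64 controls were left out. Of the rest, 34945 had 1 gene symbol, 932 several and 9160 none listed; 4 with several symbols name a gene of the family and were not used.

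The comparison used lmFit and eBayes of limma 3.58.1 (R 4.3.3), without covariates or a filter on level, with 2 residual and 4.54 prior degrees of freedom. The fit was also run on simulated data with independent noise for each probe set. That simulation holds no shifts shared between probe sets, so it does not check the test against them. The median standard error was 0.12 on the log2 scale, and the number of arrays limits the precision; p-values measure only the spread between these samples, which may be technical. The members and lists were chosen with earlier results of these data known. Named genes are the 10 of smallest p in each direction with a mean of at least 6, genes with probe sets of opposite sign and 1 differing by at least 0.3, 8 genes named always, and up to 4 of each related list. Among genes of the related lists, Gabpa, Tufm, Mtif3, Mtg2 and Pars2 were named outside this rule, with their values known. Intervals are 95%. The alternatives covered the prior variance, scaling between arrays, array weights, dim and cross-hybridising probe sets, the replicate block, each array left out, averaged probe sets and chromosome 7. Tables and plots used Python 3.11.15, pandas 2.3.3, numpy 2.4.6 and matplotlib 3.10.9.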

Additional observations from a re-analysis of the deposited data

How the results depend on the processing

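No probe set of the family passed the limma test as deposited or in any of 16 alternatives. As deposited, 10 were higher and 1 was lower at unadjusted p under 0.05. The smallest adjusted p lay between 0.178 and 0.886. The median difference of the 75 genes (0.076) was 0.14 with arrays shifted to 1 median, 0.0073 after quantile normalisation, 0.0032 after cyclic loess and 0.026 to 0.12 with 1 array left out, where a lone array is assumed to vary like the others. Cyclic loess also gave 38 genes higher in place of 58 and turned the large subunit median to −0.012. After cyclic loess and quantile normalisation respectively, Mrpl44 lay at −0.056 and −0.049, Mrps22 at −0.061 and −0.061 and Mrps16 at −0.032 and −0.019; averaging probe sets put Mrps5 at −0.15. With 1 array left out the signs turned for Mrpl44 (−0.071 to 0.099), Mrps22 (−0.061 to 0.096), Mrps16 (−0.00016 to 0.073), Mrps5 (−0.065 to 0.39), Mrpl12 (−0.041 to 0.26), Mrps6 (−0.18 to 0.028) and Mrps11 (−0.24 to 0.080). The other 20 of 27 named genes kept their sign throughout. The causes were not tested. Same-numbered arrays share only a number (correlation of their deviations 0.085), and the replicate block called 0 probe sets, and 5 were higher and 2 were lower at unadjusted p under 0.05.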

Other observations

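Some genes of the family share their start region with a neighbour. By RefSeq, 22 of the 66 genes with a promoter window have an opposite-strand gene start within 500 bases upstream or just inside their own. The share over all genes was not counted. Mrpl46 and Mrps11 face each other 42 bases apart, and differed by 0.068 and −0.082. Mrpl43 lies 116 bases from Twnk, the helicase gene of mitochondrial DNA, and both were lower, by −0.094 and −0.087. Mrpl47 faces Ndufb5, a respiratory complex I gene, with differences of −0.071 and 0.071, and Mrpl49 faces Fau, which encodes a cytosolic ribosomal protein, with 0.16 and 0.064. Mrpl32 faces the proteasome gene Psma2, with 0.10 and 0.071. Of the 20 neighbours outside the family, 11 had the sign of their partner, and 0 passed the limma test; the largest difference was 0.45, for Zfp189 beside Mrpl50.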
